A study of Mus musculus with 2 samples.

Results

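The 34 genes described here are brown fat and adipocyte transcripts: genes of heat production in brown fat, coat proteins and enzymes of the lipid droplet, genes that take up and burn fatty acids, enzymes of triglyceride synthesis, and proteins that fat cells secrete. They were taken by gene name from a list made for this tissue, and the reads of every transcript model of a gene were added up, out of 18580 annotated genes that had reads in either library. Of the 34, 33 had reads, 32 of them in both libraries. Leptin (Lep) had reads in replicate 2 alone, and Zic1 had no read in either library. The data are long-read RNA sequencing of total RNA from the adrenal glands of B6CASTF1/J mice (an F1 hybrid strain), all male and 10 days old, with spike-in RNAs added. There is 1 group with 2 biological replicates and no treatment or mutant allele, so each gene is given as replicate 2 against replicate 1, and a test between them compares the reads of 2 libraries and says nothing of a condition. The animal behind replicate 2 is named in differing ways in its labels, and both samples carry a single donor entry, so whether the libraries stem from separate mice is unclear.

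Brown fat burns lipid to make heat: noradrenaline acts on the beta-3 receptor, cAMP rises, lipases free fatty acids from many small droplets, and mitochondria with the uncoupling protein UCP1 oxidise them without making ATP. White fat cells hold a single large droplet and secrete hormones such as leptin, adiponectin and resistin. Brown fat surrounds the kidney and adrenal gland of young mice, and a shared part of both programmes, with the regulators PPARgamma and C/EBPalpha, runs in every fat cell.

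Replicate 2 held 1303420 reads on annotated genes and replicate 1 held 927914, and levels are given as CPM, counts per 1000000 of these. A transcript gives a single long read whatever its length, so no division by length is needed, but the libraries differ in the lengths they hold. The 6 marker genes tested of the adrenal cortex took 17960 CPM in replicate 2 and 26713 CPM in replicate 1. By Fisher's exact test 5 of them were called lower in replicate 2 and 0 higher (22.2% and 13% of all genes tested). Against the ratio expected for transcript length, from genes of like length, 2 were lower and 2 higher (9.91% and 13.1% of all genes). Cyp11a1 had 7442 CPM in replicate 2 and 7423 CPM in replicate 1, Cyp21a1 had 3568 CPM in replicate 2 and 8043 CPM in replicate 1, and Cyp11b1 had 2380 CPM in replicate 2 and 5061 CPM in replicate 1. Markers of the labelled tissue were thus high in both libraries. The 34 genes together took 18408 CPM in replicate 2 and 16888 CPM in replicate 1, which is 1.84% of the reads in replicate 2 and 1.69% in replicate 1, with a mean of 17648 ± 1075 CPM (SD, n = 2). Of the 34 genes, 4 reached 1000 CPM in both libraries (Ucp1, Cidea, Fabp4 and Lpl), 21 reached 100 CPM in both and 29 reached 10 CPM in both. In bulk tissue, fewer cells of a type and less RNA per cell cannot be told apart.

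**Figure D1:**
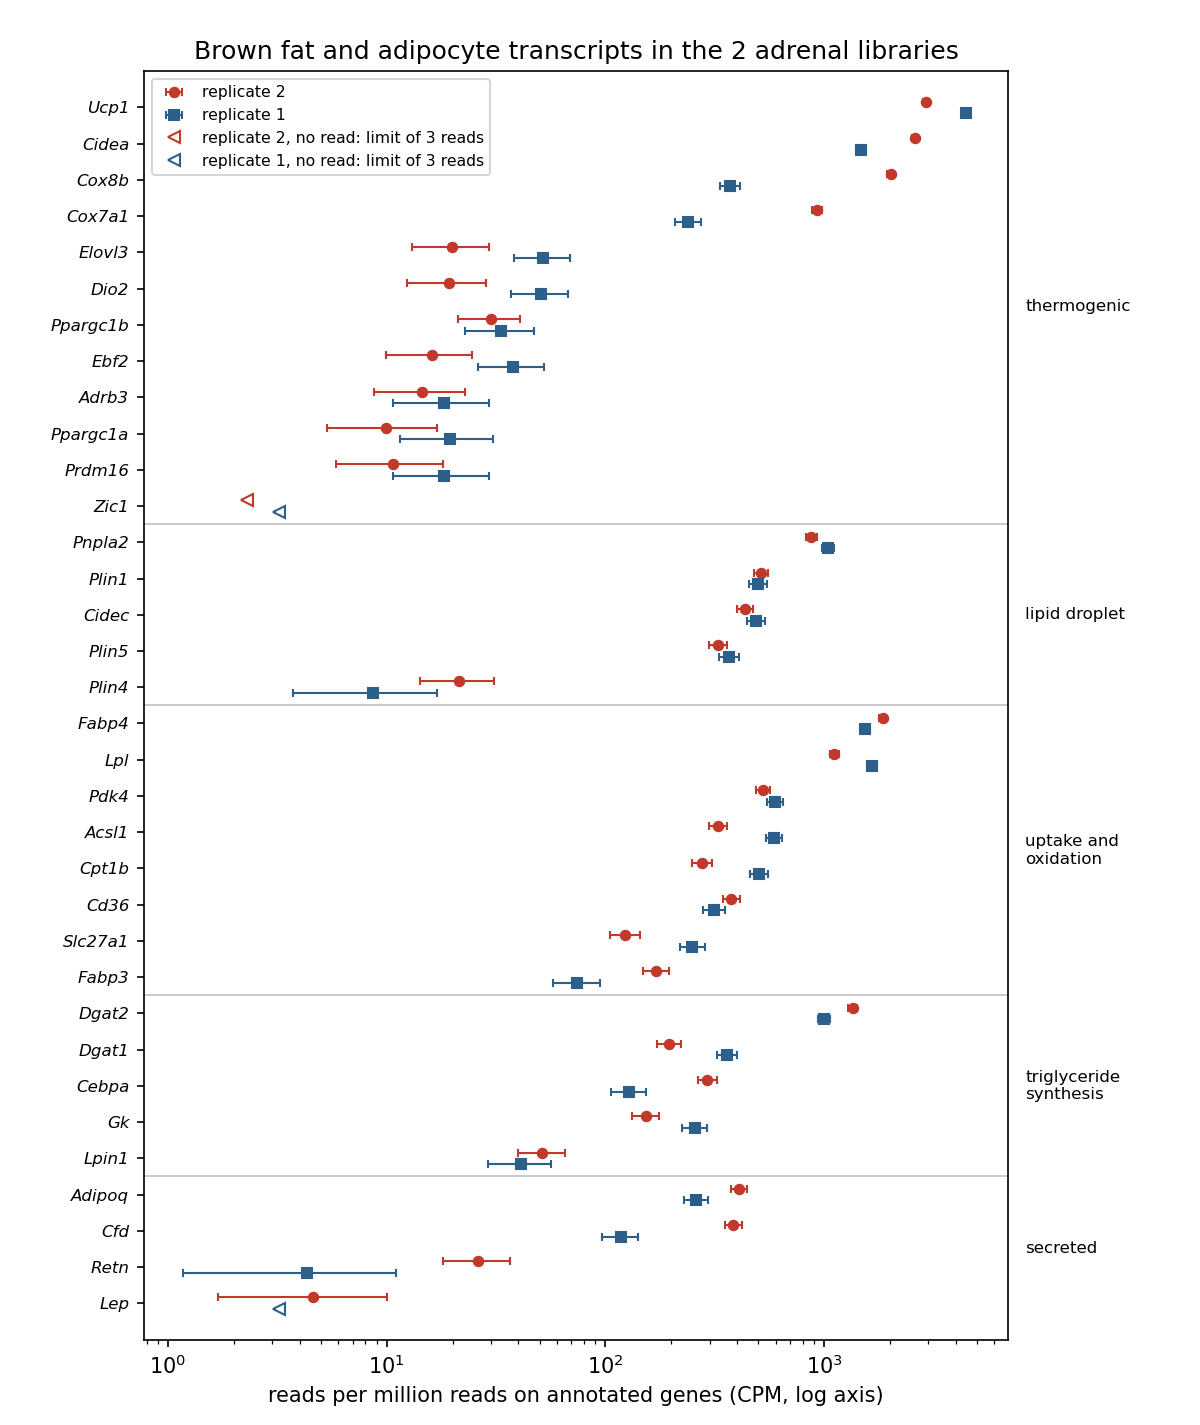
Level of each gene in replicate 2 (circles, drawn above) and replicate 1 (squares), in CPM on a log axis, with exact 95% Poisson intervals for counting error, grouped by role. Open triangles mark libraries with no read, at the level that 3 reads would give: 2.30 CPM in replicate 2 and 3.23 CPM in replicate 1. Ucp1 is at the top of its group in both libraries, and Cox8b, Cox7a1, Cfd and Retn stand farther to the right in replicate 2.

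Ucp1, the uncoupling protein that lets protons back into the mitochondrial matrix as heat, was the highest of the 34 in both libraries. It had 3815 reads (2927 CPM, 95% Poisson interval 2835 to 3021) in replicate 2 and 4130 reads (4451 CPM, 4316 to 4589) in replicate 1, and ranked 19th of all genes in replicate 2 and 8th in replicate 1. Replicate 2 was 0.658 times replicate 1 (log2 ratio -0.60, adjusted p = 1.24e-75, two-sided Fisher's exact test with Benjamini-Hochberg adjustment over 11650 genes). Ucp1 lies on chromosome 8 from 83290352 to 83298452 of mm10 on the plus strand, and its reads were nearly all full length: 3574 of 3815 in replicate 2 and 3970 of 4130 in replicate 1 matched the annotated 6-exon transcript Ucp1-201, of 1636 bases. Cidea, a droplet protein of brown fat, was the second highest in replicate 2, with 3395 reads (2605 CPM) in replicate 2 and 1373 reads (1480 CPM) in replicate 1. It lay the other way from Ucp1, 1.76-fold higher in replicate 2 (adjusted p of Fisher's exact test, 9.63e-73).

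Of the 32 genes that could be tested, 11 were higher and 11 lower in replicate 2 at a threshold of 0.05 for the adjusted p, against a background of 35.1% of all genes tested, 13% higher and 22.2% lower. With a minimum of 2-fold besides, 6 were higher and 4 lower, where 9.67% and 10.4% of all genes were (20.1% in either direction). The members' median log2 ratio was -0.17, and that of all 11650 genes tested was -0.25. Scaling by TMM adds 0.26 to every log2 ratio, and the split of the 32 genes then becomes 13 higher and 9 lower. The thermogenic, the uptake and oxidation and the triglyceride synthesis genes each held calls in both directions. In the thermogenic group of 12 genes, 11 could be tested, and 3 were higher and 4 lower.

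The promoters of Ucp1 and Dio2 are shown because both genes are known targets of the cAMP signal that noradrenaline sends to brown fat. The letters TGACG, the core of a cAMP response element, were searched on both strands and are in capitals; in Dio2 the matches on both strands overlap and form TGACGTCA. Sequences are RefSeq windows on GRCm38.p6 from 250 bases before to 50 bases after RefSeq's start site, Ucp1 at chr8:83290098-83290397 on the plus strand and Dio2 at chr12:90738989-90739288 on the minus strand. The Dio2 window lies wholly upstream of position 90738438, where Dio2-201 starts, the annotated transcript that held Dio2 reads here.
Ucp1: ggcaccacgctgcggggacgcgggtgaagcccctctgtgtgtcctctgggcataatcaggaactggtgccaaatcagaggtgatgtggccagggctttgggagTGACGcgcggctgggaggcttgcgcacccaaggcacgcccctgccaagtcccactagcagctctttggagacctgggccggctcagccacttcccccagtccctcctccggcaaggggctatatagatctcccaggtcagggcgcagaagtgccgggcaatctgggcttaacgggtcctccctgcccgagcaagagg
Dio2: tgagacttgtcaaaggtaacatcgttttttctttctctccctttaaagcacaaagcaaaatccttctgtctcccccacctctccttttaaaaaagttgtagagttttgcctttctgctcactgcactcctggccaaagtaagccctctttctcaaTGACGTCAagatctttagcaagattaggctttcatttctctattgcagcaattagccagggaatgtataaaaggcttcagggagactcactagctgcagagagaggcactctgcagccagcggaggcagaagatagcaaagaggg
TGACG was in 5 of the 29 windows that RefSeq gives for 24 of the 34 genes (Dio2, Fabp3, Gk, Ppargc1a and Ucp1), and in 20.8% of the 32851 windows of all genes. TGACGTCA was in 1 member window, that of Dio2, and in 1.79% of all windows. The genes that hold the letters spanned the whole range of levels, with Ucp1 at the top and Dio2 and Ppargc1a among the lowest.

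Cox8b and Cox7a1, the brown fat and muscle forms of a pair of cytochrome c oxidase subunits, differed most in this group. Cox8b had 2629 reads (2017 CPM) in replicate 2 and 345 reads (372 CPM) in replicate 1, a 5.42-fold difference (adjusted p = 4.88e-281, Fisher's exact test). Cox7a1 had 1211 reads (929 CPM) in replicate 2 and 222 reads (239 CPM) in replicate 1, or 3.88-fold (adjusted p = 1.07e-98). Both have short transcripts, of 360 and 393 bases, and the median log2 ratio of all genes with transcripts up to 1000 bases was 1.00. Against the ratio expected for their length Cox8b kept its call (log2 0.70, adjusted p = 1.45e-17, exact binomial test) and Cox7a1 did not (0.26, adjusted p = 0.056). Skeletal muscle also makes both subunits, and of 19 tested muscle genes 15 were higher in replicate 2 and 0 lower (13% and 22.2% of all genes tested). The muscle list held 4270 CPM in replicate 2 against 1417 CPM in replicate 1, led by Acta1, Ckm and Atp2a1, with Myh3 and Myh7 at 0 reads in replicate 1 and none at 0 in replicate 2. The 4 heart markers Myh6, Tnnt2, Nppa and Myl7 had no read in either library. The part of muscle RNA in the 2 ratios was not tested.

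The enzymes and regulators of heat production were far less abundant. Dio2, which makes active thyroid hormone, had 25 reads (19.2 CPM) in replicate 2 and 47 reads (50.7 CPM) in replicate 1, lower in replicate 2 (log2 -1.39, adjusted p = 0.00039, Fisher's exact test). Annotated transcripts held 6 of its 25 reads in replicate 2 and 34 of its 47 in replicate 1. A Genomic model of 1596 bases held 14 reads in replicate 2 alone, and another held 13 in replicate 1 alone. Gm26512, a noncoding gene on the opposite strand that overlaps 238 bases of Dio2, had 40 reads in replicate 2 and 2 in replicate 1. Elovl3, a fatty acid elongase induced by cold, had 26 reads (19.9 CPM) in replicate 2 and 48 reads (51.7 CPM) in replicate 1 (log2 -1.36, adjusted p = 0.00046). Both were lower in replicate 2 against the ratio expected for length too. Ebf2, a transcription factor of brown fat precursors, had 21 reads in replicate 2 and 35 in replicate 1 (log2 -1.21, adjusted p = 0.0072), a call lost with TMM or DESeq2 scaling and against the ratio expected for length.

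No difference was detectable at this depth for the other regulators. Prdm16, a co-regulator that fixes brown fat identity, had 14 reads in replicate 2 and 17 in replicate 1. A single read, in replicate 1, matched an annotated transcript, and 13 in each library were on Genomic models, the class for reads within a gene that match no chain of its exons. In replicate 1, 12 of the 17 were on a single model of 6034 bases, from 154630690 to 154636723 on chromosome 4. The coactivators Ppargc1a and Ppargc1b, which drive mitochondrial biogenesis, were also rare: Ppargc1a had 13 reads in replicate 2 against 18 in replicate 1 (adjusted p of Fisher's exact test, 0.15), and Ppargc1b had 39 in replicate 2 against 31 in replicate 1 (adjusted p = 0.84). A 3' portion with 8 exons held 23 of the 39 Ppargc1b reads in replicate 2 and 12 of 31 in replicate 1. Ppargc1a had more reads on models of the opposite strand than of its own, 19 against 13 in replicate 2 and 45 against 18 in replicate 1. Adrb3, the beta-3 receptor, had 19 reads in replicate 2 and 17 in replicate 1 (adjusted p = 0.66). Its most-read model was unannotated, a 3-exon chain that held 10 of 19 reads in replicate 2 and 8 of 17 in replicate 1. Zic1, a marker of interscapular brown fat, had 0 reads; the limit that this sets is 2.30 CPM for replicate 2 and 3.23 CPM for replicate 1.

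Of the 5 lipid droplet genes 1 was called, Pnpla2, where 35.1% of all genes tested were. Pnpla2, the first lipase of triglyceride breakdown, had 1138 reads (873 CPM) in replicate 2 and 970 reads (1045 CPM) in replicate 1. It was lower in replicate 2 (log2 -0.26, adjusted p = 0.00028, Fisher's exact test), and that call was lost with TMM or DESeq2 scaling and against the ratio expected for length. Plin1, the coat protein that holds lipases off the droplet, had 673 reads (516 CPM) in replicate 2 and 464 reads (500 CPM) in replicate 1 (log2 0.05, adjusted p = 0.75). With TMM or DESeq2 scaling and against the ratio expected for length Plin1 was called higher in replicate 2 (log2 0.31, 0.30 and 0.54). Plin5, which ties droplets to mitochondria in oxidative tissue, had 426 reads (327 CPM) in replicate 2 and 341 reads (367 CPM) in replicate 1 (adjusted p = 0.21). Plin4, a coat protein abundant in white fat, had 28 reads in replicate 2 and 8 in replicate 1 (adjusted p = 0.051), none on an annotated transcript. With TMM or DESeq2 scaling it was called higher in replicate 2 (adjusted p = 0.017 and 0.018), and 15 of its 28 reads in replicate 2 lay on 1 Genomic model of 2690 bases that had no read in replicate 1. On the strand opposite Plin1, unannotated models held 400 reads in replicate 2 and 24 in replicate 1.

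Cidec, which fuses small droplets into large ones, had 568 reads (436 CPM) in replicate 2 and 453 reads (488 CPM) in replicate 1 (log2 -0.16, adjusted p = 0.16). It was lower in replicate 2 when only annotated transcripts were counted (log2 -0.40, adjusted p = 0.00086, Fisher's exact test), without Genomic models (-0.34, adjusted p = 0.0022), and against the ratio expected for length (-1.07). The length taken was the 785 bases of its most-read annotated transcript, Cidec-203. Its other annotated transcripts have 1703 and 1720 bases, and an unannotated chain with the start of Cidec-203 has 1696. The ratio against such longer lengths was not tested. A Genomic model listed with a length of 3 bases at the gene's 3' end held 101 of its reads in replicate 2 and 13 in replicate 1. Models under 50 bases held 0.796% of the reads on annotated genes in replicate 2 and 0.0879% in replicate 1.

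Most Cidec reads that hold a first intron began at the downstream of the gene's 2 start sites. Both promoters are shown because the reads tell the 2 starts apart; the windows are RefSeq's, on the minus strand of chromosome 6, and capitals mark coding bases, which only the downstream one holds.
Cidec upstream, chr6:113435711-113436010: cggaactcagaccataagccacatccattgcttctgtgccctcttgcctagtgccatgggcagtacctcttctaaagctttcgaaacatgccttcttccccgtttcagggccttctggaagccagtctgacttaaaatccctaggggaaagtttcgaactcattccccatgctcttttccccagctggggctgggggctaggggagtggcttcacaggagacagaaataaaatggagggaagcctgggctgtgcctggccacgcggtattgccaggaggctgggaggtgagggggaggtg
Cidec downstream, chr6:113434715-113435014: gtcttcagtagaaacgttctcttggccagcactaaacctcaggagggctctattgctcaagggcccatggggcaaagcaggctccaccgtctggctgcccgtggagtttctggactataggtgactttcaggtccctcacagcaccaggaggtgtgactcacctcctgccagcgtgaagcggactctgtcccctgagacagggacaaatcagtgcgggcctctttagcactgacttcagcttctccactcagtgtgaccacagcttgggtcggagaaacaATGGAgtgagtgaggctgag
The starts lie 996 bases apart. The downstream first exon, from 113434730 to 113434764, opens the reading frame earlier, and its transcript Cidec-203 codes for 249 codons, 10 more than the 239 of Cidec-201 and Cidec-202, which start upstream. A form of the protein with a longer amino terminus, FSP27 beta, has been described in mouse brown fat.

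Over all models that hold 1 of the 3 first introns, the downstream exon was used in 278 of 380 Cidec reads in replicate 2 (73.2%, exact 95% binomial interval 68.4 to 77.5%) and in 318 of 382 in replicate 1 (83.2%, 79.1 to 86.9%). Of the 15 genes of the set tested for the share of their most-read annotated transcript, Cidec was the only gene called: Cidec-203 had 260 of 361 annotated reads in replicate 2 and 303 of 367 in replicate 1 (adjusted p of Fisher's exact test, 0.039; background 2.17%). Set against every other model of the gene, partial ones included, the share of the top transcript differed in 11 of 23 members (background 20.4%). The downstream start led in both libraries, with a smaller share in replicate 2.

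The genes that take up and oxidise fatty acids were split, with 3 of 8 higher and 4 lower in replicate 2 (13% and 22.2% of all genes tested). The 4 lower genes have transcripts of 2730 bases or more, as do Cd36 (3016 bases, called higher) and Pdk4 (3484 bases, not called). Lpl, the lipase that frees fatty acids from lipoproteins in capillaries, had 1455 reads (1116 CPM) in replicate 2 and 1544 reads (1664 CPM) in replicate 1 (0.671 times, adjusted p = 4.44e-26, Fisher's exact test). Acsl1, which activates fatty acids with coenzyme A, had 427 reads (328 CPM) in replicate 2 and 550 reads (593 CPM) in replicate 1 (0.553 times, adjusted p = 9.37e-19). Both act before fatty acids enter mitochondria. Cpt1b, the muscle and brown fat form of the gate to mitochondrial oxidation, had 360 reads (276 CPM) in replicate 2 and 469 reads (505 CPM) in replicate 1 (0.546 times, adjusted p = 1.32e-16). Slc27a1, a fatty acid transporter, had 161 reads (124 CPM) in replicate 2 and 232 reads (250 CPM) in replicate 1 (0.494 times, adjusted p = 7.68e-11). Against the ratio expected for its length Lpl was not called (log2 -0.09, adjusted p = 0.27, exact binomial test), while the other genes kept their calls. A read-through gene on the same strand, Gm44502, overlaps all of Cpt1b and held 50 reads in replicate 2 and 0 in replicate 1; with these added, Cpt1b had 315 CPM in replicate 2 and 505 CPM in replicate 1.

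Fabp4 and Fabp3, which carry fatty acids in the cytosol of fat cells and capillaries and of muscle, were higher in replicate 2. Fabp4 had 2415 reads (1853 CPM) in replicate 2 and 1433 reads (1544 CPM) in replicate 1 (log2 0.26, adjusted p = 4.59e-07, Fisher's exact test). This small difference turned round against the ratio expected for its 896 bases (log2 -0.35, adjusted p = 1.73e-11, exact binomial test). On annotated transcripts alone it was larger (log2 1.31, adjusted p = 6.34e-61, Fisher's exact test). Fabp3 had 223 reads (171 CPM) in replicate 2 and 69 reads (74.4 CPM) in replicate 1 (2.30-fold, adjusted p = 2.13e-09), a call lost against the ratio expected for length. Cd36, a fatty acid receptor of fat and endothelium, had 490 reads (376 CPM) in replicate 2 and 291 reads (314 CPM) in replicate 1 (1.20-fold, adjusted p = 0.044), a call lost with no minimum of reads; on annotated transcripts alone the log2 ratio of Cd36 was 1.24 (adjusted p = 1.58e-11). Capillary endothelium also makes Lpl, Fabp4 and Cd36. Its 7 tested markers had sums of 1025 CPM in replicate 2 and 1208 CPM in replicate 1. In replicate 2, 1 was higher and 4 lower (13% and 22.2% of all genes tested). Against the ratio expected for length 1 was higher and 1 lower (13.1% and 9.91% of all genes). Of the 7 markers, Cldn5 did not pass (584 CPM in replicate 2 and 571 CPM in replicate 1), Egfl7 was higher (254 CPM in replicate 2 and 183 CPM in replicate 1) and Plvap lower (115 CPM in replicate 2 and 319 CPM in replicate 1). Whether endothelial RNA contributes was not tested. Pdk4, which shuts carbohydrate out of the citric acid cycle, had 684 reads (525 CPM) in replicate 2 and 554 reads (597 CPM) in replicate 1 (log2 -0.19, adjusted p = 0.065). Of those of replicate 2, 197 lay on a Genomic model listed at a single base at the gene's 3' end, and without Genomic models the log2 ratio of Pdk4 was -0.54 (adjusted p = 5.97e-08, Fisher's exact test). Against the ratio expected for length Pdk4 was called the other way, higher in replicate 2 (log2 0.27, adjusted p = 0.0065, exact binomial test).

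Among the genes of triglyceride synthesis Dgat2 had the highest level in both libraries, with 1761 reads (1351 CPM) in replicate 2 and 926 reads (998 CPM) in replicate 1. Dgat2, 1 of 2 enzymes for the last step of that pathway, was 1.35-fold higher in replicate 2 (adjusted p of Fisher's exact test, 9.05e-13), but not on annotated transcripts alone (log2 0.07, adjusted p = 0.51). Dgat1, the other enzyme of that step, had 255 reads (196 CPM) in replicate 2 and 335 reads (361 CPM) in replicate 1 and was lower in replicate 2 (0.542 times, adjusted p = 2.64e-12). The 2 enzymes thus lay in opposite directions, and each kept its direction with TMM or DESeq2 scaling and against the ratio expected for length. Cebpa, the C/EBPalpha regulator of adipocyte genes, had 382 reads (293 CPM) in replicate 2 and 119 reads (128 CPM) in replicate 1 (2.29-fold, adjusted p = 1.87e-15). Liver also makes Cebpa, and all 8 liver markers were higher in replicate 2 (28621 CPM in replicate 2 and 9612 CPM in replicate 1 in all). The part of liver RNA was not tested. Gk, glycerol kinase, which lets brown fat reuse glycerol, had 199 reads (153 CPM) in replicate 2 and 238 reads (256 CPM) in replicate 1 (0.595 times, adjusted p = 6.89e-07), a call lost against the ratio expected for length. Lpin1, the phosphatase that makes diacylglycerol, had 67 reads (51.4 CPM) in replicate 2 and 38 reads (41.0 CPM) in replicate 1 (adjusted p = 0.44). Annotated transcripts held 5 of its 67 reads in replicate 2 and 14 of 38 in replicate 1. A Genomic model of 2420 bases held 18 Lpin1 reads in replicate 2 and 8 in replicate 1.

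Exons that change the proteins of Gk and Lpin1 were present in part of the molecules. They are shown as the coding exon sequences of GENCODE M21 on mm10, both on the minus strand: exon 5 of Gk-206, of 84 bases, at chrX:85749612-85749695, which Gk-201 lacks, and exon 6 of Lpin1-201, of 99 bases, at chr12:16571164-16571262, which Lpin1-204 lacks and which sets lipin-1 beta apart from lipin-1 alpha.
Gk: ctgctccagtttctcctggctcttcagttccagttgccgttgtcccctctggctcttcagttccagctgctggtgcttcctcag
Lpin1: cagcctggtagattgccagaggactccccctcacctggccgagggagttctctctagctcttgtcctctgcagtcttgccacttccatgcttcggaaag
The Gk exon was in 53 of 161 reads that span it in replicate 2 (32.9%, exact binomial interval 25.7 to 40.8%) and in 58 of 213 in replicate 1 (27.2%, 21.4 to 33.7%). The Lpin1 exon was in 20 of 21 reads in replicate 2 (95.2%, 76.2 to 99.9%) and in 14 of 23 in replicate 1 (60.9%, 38.5 to 80.3%). The intervals overlapped for both exons, which does not show that the shares are equal, and no test of either exon's share was run. The beta form made up most of the few informative Lpin1 reads in each library.

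All 3 secreted proteins of fat cells that could be tested were higher in replicate 2, as were 13% of all genes tested. With Lep they took 825 CPM in replicate 2 and 382 CPM in replicate 1. Adipoq, adiponectin, had 534 reads (410 CPM) in replicate 2 and 241 reads (260 CPM) in replicate 1 (1.58-fold, adjusted p = 2.62e-08, Fisher's exact test). Cfd, the complement protease adipsin, had 501 reads (384 CPM) in replicate 2 and 109 reads (117 CPM) in replicate 1 (3.27-fold, adjusted p = 3.69e-34). Retn, resistin, had 34 reads (26.1 CPM) in replicate 2 and 4 reads (4.31 CPM) in replicate 1 (6.05-fold, adjusted p = 0.00029). These calls held against the ratio expected for length, with log2 ratios of 0.69 for Adipoq, 1.01 for Cfd and 1.75 for Retn. On annotated transcripts alone Adipoq was not called (324 reads in replicate 2 and 228 in replicate 1, log2 0.13, adjusted p = 0.47), and 156 of its reads in replicate 2 lay on a single-exon model of 955 bases in its last exon. Lep had 6 reads (4.60 CPM) in replicate 2 and 0 reads in replicate 1, at least 1.42-fold higher against a limit of 3 reads in replicate 1, and was too rare to test.

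Cfd was spliced to either of 2 sites 3 bases apart at the start of exon 2. The junction of exons 1 and 2 is shown for both transcripts, from chromosome 10 on the plus strand, 15 bases on each side, with the 3 bases that Cfd-202 lacks in capitals.
Cfd-201: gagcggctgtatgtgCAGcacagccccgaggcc
Cfd-202: gagcggctgtatgtgcacagccccgaggcc
Cfd-201, with 259 codons, took 188 of 410 reads in replicate 2 (45.9%, exact interval 41.0 to 50.8%) and 47 of 103 in replicate 1 (45.6%, 35.8 to 55.7%). The share was nearly equal in both libraries although the level of Cfd was not. Cd36 and Acsl1 have a choice of first exons that lie apart, as Cidec does. In Plin1 the first exons of Plin1-206 and Plin1-201 overlap and end at different splice sites. Another start, that of Plin1-202, held 68 of 429 annotated reads in replicate 2 and 67 of 346 in replicate 1. The first exon of Plin1-206, against that of Plin1-201, was used in 74.2% of 411 reads in replicate 2 and 74.0% of 335 in replicate 1. The first intron of Cd36-201, against that of Cd36-204, was held by 70.6% of 337 reads in replicate 2 and 70.3% of 118 in replicate 1. That count takes the intron wherever it lies in a chain, so it is no share of starts. Cd36-201 itself took 139 of 250 annotated reads in replicate 2 and 43 of 81 in replicate 1. The first exon of Acsl1-201, against a first exon 19929 bases downstream, was used in 91.9% of 296 reads in replicate 2 and 92.3% of 431 in replicate 1. Plin5-202, against Plin5-201, took 55.8% of 269 reads in replicate 2 and 57.4% of 204 in replicate 1. In these 4 genes both transcripts have the same coding length, unlike those of Cidec. The first exons of Slc27a1-201 and Slc27a1-207 end at the same base, so the 2 transcripts differ in the splice site that follows. The first intron of Slc27a1-201, against that of Slc27a1-207, was held by 27 of 52 reads in replicate 2 (51.9%) and 37 of 71 in replicate 1 (52.1%). The 107-base exon 2 of Slc27a1-201, with both its annotated ends, was in 11 of 65 reads that hold or skip it in replicate 2 (16.9%). In replicate 1 it was in 19 of 113 (16.8%).

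**Figure D2:**
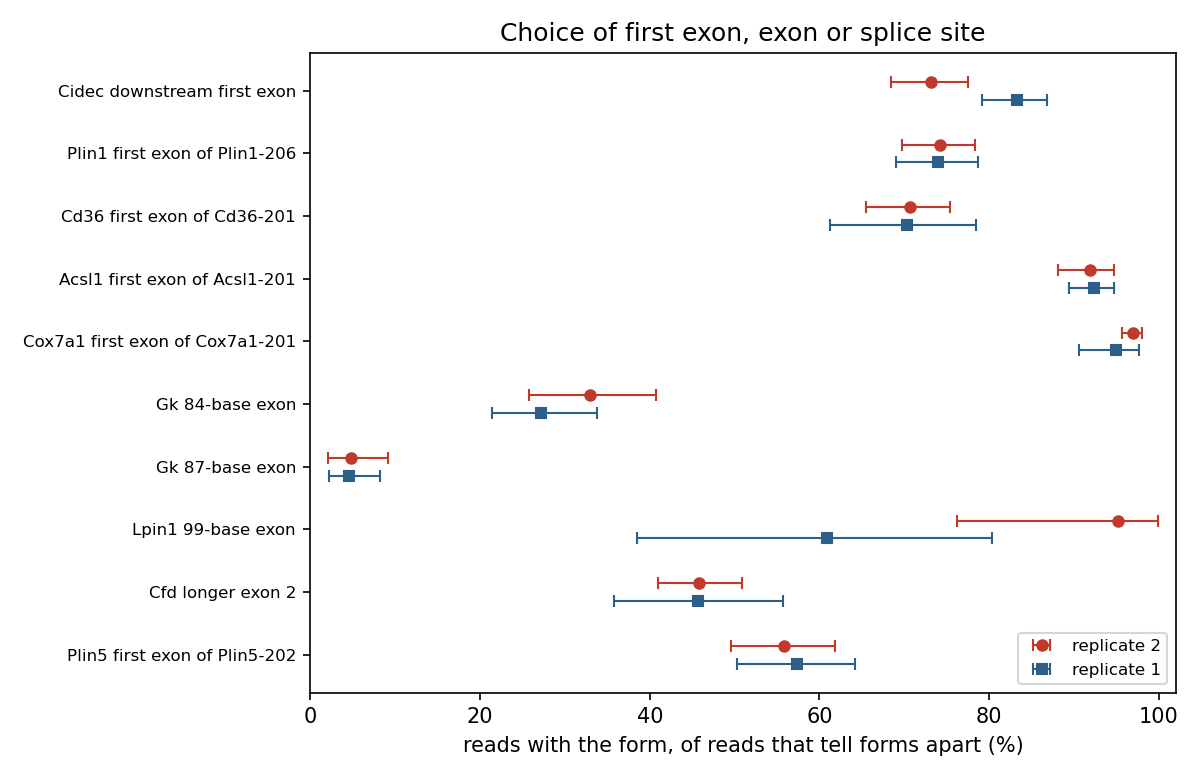
Share of reads that hold the named first exon, exon or splice site, of the reads that tell the forms apart, in percent, for replicate 2 (circles, drawn above) and replicate 1 (squares), with exact 95% binomial intervals. The intervals of the Cidec downstream first exon do not overlap (73.2% in replicate 2 and 83.2% in replicate 1), and the Lpin1 exon has the widest intervals.

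The ratio between the libraries ran with the length of the transcript. Of the 7 tested members with transcripts up to 1000 bases, 6 were higher in replicate 2 and 0 lower, with a median log2 ratio of 1.71; over all 1149 genes of that length 52.6% were higher and 3.57% lower, with a median of 1.00. Of the 10 with transcripts over 3000 bases, 1 was higher and 4 lower, with a median of -0.66; over all 4414 genes of that length 5.17% were higher and 25.8% lower, with a median of -0.46. Length and log2 ratio had a Spearman's rho of -0.60 across 31 members and -0.30 across 11031 genes, which share the same 2 libraries and are no independent replicates. Against the running median of genes of like length, 10 of 31 members were higher and 9 lower, where 13.1% and 9.91% of all genes were. The 5 genes Cidea, Cox8b, Cfd, Retn and Cebpa were called higher, and the 7 genes Ucp1, Dio2, Elovl3, Cpt1b, Dgat1, Acsl1 and Slc27a1 lower, under all alternatives without a minimum fold in which they could be tested.

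**Figure D3:**
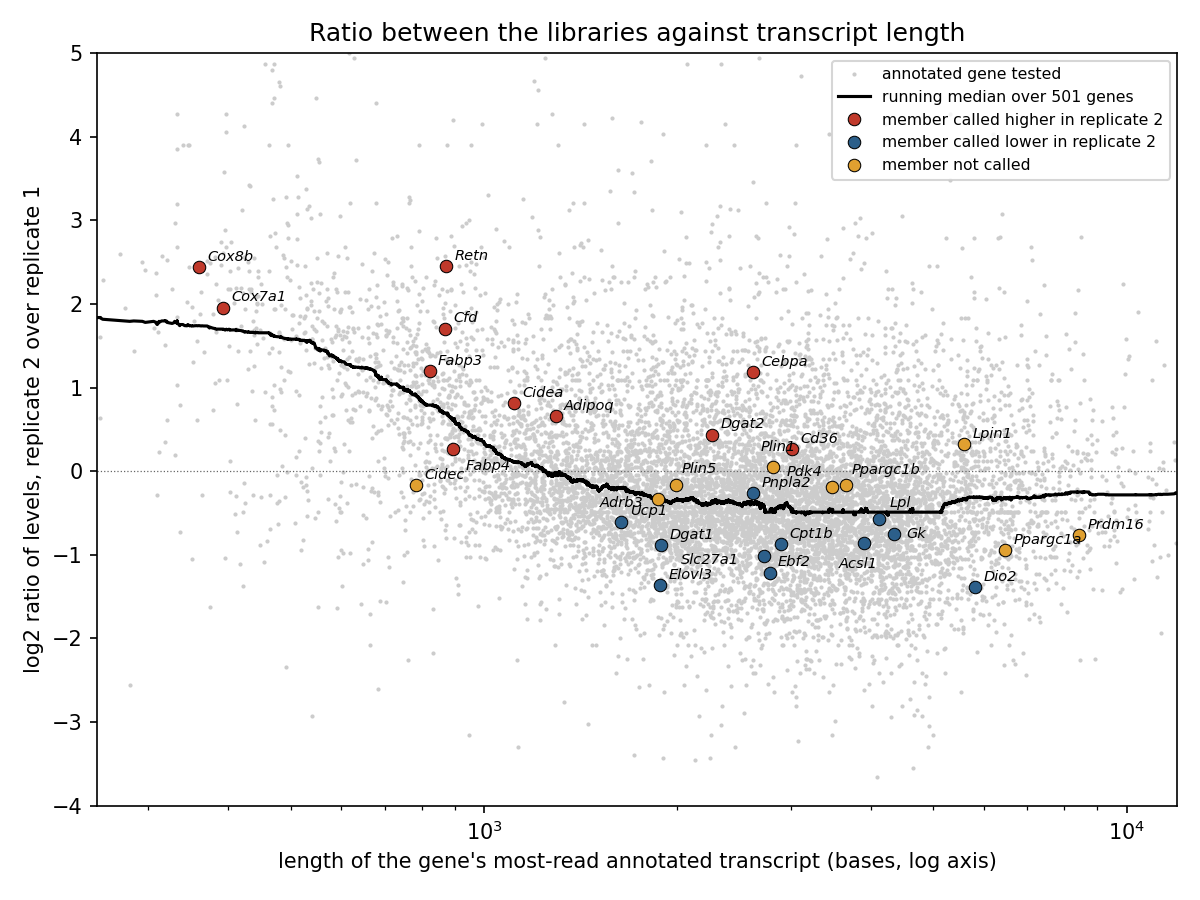
Log2 ratio of levels (replicate 2 over replicate 1) against the length of the gene's most-read annotated transcript in bases, on a log axis. Grey points are the annotated genes tested, 76 of 11031 outside the axes, the black line is the running median over 501 genes, and large points are members. Short members such as Cox8b and Cox7a1 lie high with the line, and Cebpa, Retn, Ucp1 and Elovl3 lie away from it.

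The kind of model behind the reads differed between the libraries too. Annotated transcripts matched in full held 71.3% of the members' reads in replicate 2 and 78.9% in replicate 1, and single-exon pieces of spliced genes held 10.6% in replicate 2 and 2.44% in replicate 1. Among the 27 members that reached 20 reads in both libraries, 22 had a larger share of single-exon pieces in replicate 2 and 3 a smaller one; over 6342 genes 76.6% had a larger share. In Cidea a single-exon model at the 3' end, of 358 bases, held 996 of 3395 reads in replicate 2, and that model had no read in replicate 1. Over all its single-exon pieces Cidea had 997 reads (29.4%) in replicate 2 and 108 reads (7.87%) in replicate 1. Models that start late within an annotated chain (3' portions) behaved differently from gene to gene. In Fabp4 a 2-exon portion of 585 bases, on chromosome 3 from 10204088 to 10205342, held 917 of 2415 reads (38.0%) in replicate 2 and 801 of 1433 (55.9%) in replicate 1. In Cd36 a 2-exon portion of 1148 bases held 54 of 490 reads (11.0%) in replicate 2 and 127 of 291 (43.6%) in replicate 1. The Lpl portion with 7 exons lay the other way, with 293 of 1455 reads (20.1%) in replicate 2 and 38 of 1544 (2.46%) in replicate 1, as did the Dgat2 portion with 7 exons, with 468 of 1761 (26.6%) in replicate 2 and 140 of 926 (15.1%) in replicate 1. Of the annotated transcripts of these genes, Cidea-201 held 2268 reads in replicate 2 and 1209 in replicate 1, Fabp4-201 held 1116 in replicate 2 and 366 in replicate 1, and Lpl-201 held 920 in replicate 2 and 1394 in replicate 1. Dgat2-201 held 932 reads in replicate 2 and 684 in replicate 1, and Pdk4-201 held 374 in replicate 2 and 472 in replicate 1. The share of the leading annotated transcript ranged widely over the other members. Cox8b-201 held 2503 of 2629 reads in replicate 2 and 325 of 345 in replicate 1, Cox7a1-201 held 930 of 1211 in replicate 2 and 169 of 222 in replicate 1, and Fabp3-201 held 217 of 223 in replicate 2 and 65 of 69 in replicate 1. Cebpa-201 held 381 of 382 reads in replicate 2 and 119 of 119 in replicate 1, Retn-201 held 28 of 34 in replicate 2 and 4 of 4 in replicate 1, and Elovl3-202 held 20 of 26 in replicate 2 and 41 of 48 in replicate 1. The leading annotated transcript of Pnpla2 held 690 of 1138 reads in replicate 2 and 836 of 970 in replicate 1, Dgat1-201 held 183 of 255 in replicate 2 and 268 of 335 in replicate 1, and Cpt1b-201 held 235 of 360 in replicate 2 and 314 of 469 in replicate 1. Ebf2-202 held 8 of 21 in replicate 2 and 19 of 35 in replicate 1. Unannotated intron chains with 5 or more reads in both libraries numbered 19, in 11 of the genes.

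**Figure D4:**
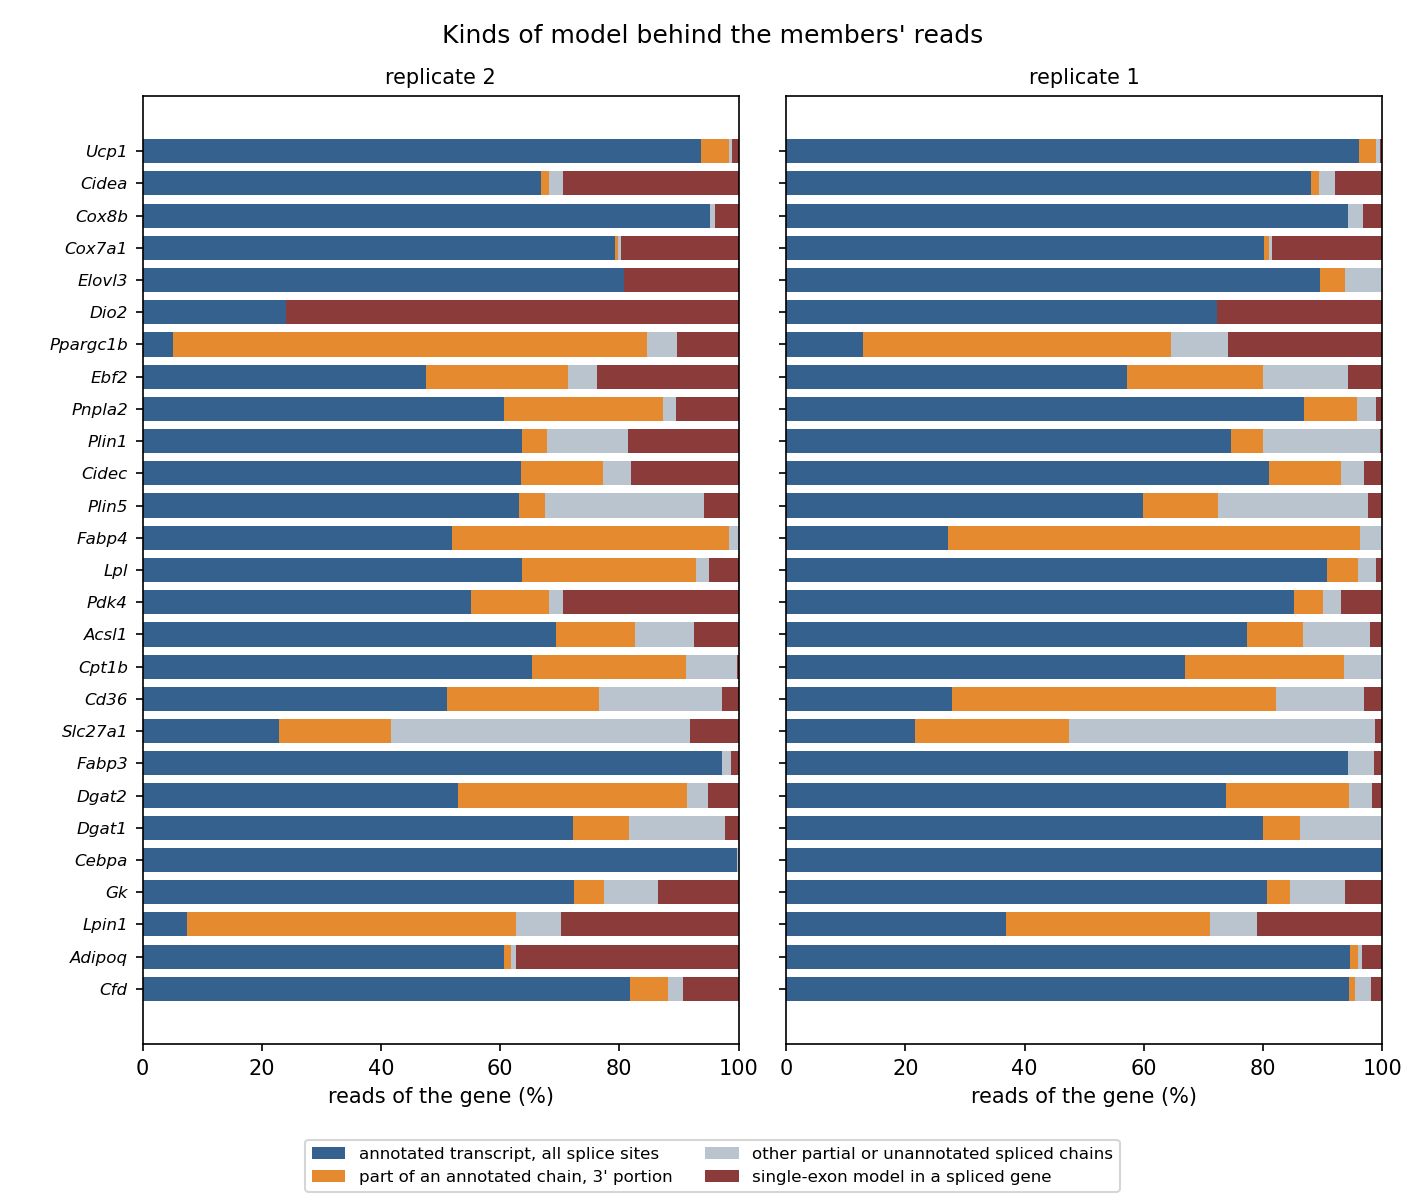
Share of each gene's reads, in percent, on 4 kinds of model in replicate 2 (left) and replicate 1 (right), for the 27 members that reached 20 reads in both. The dark red share of single-exon models is larger on the left for most genes, such as Cidea, Adipoq and Pdk4, and the orange share of 3' portions is larger on the right for Fabp4 and Cd36.

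Other genes of the same pathways, not members of the set, were higher in replicate 2 more often than lower in the brown fat list. Of its 24 tested genes 9 were higher and 1 lower (13% and 22.2% of all genes tested), with a median log2 ratio of 0.36. Against the ratio expected for length 12 were higher and 0 lower (13.1% and 9.91% of all genes). Cebpb, a regulator that starts fat cell differentiation, was the highest, with 2770 CPM in replicate 2 and 2745 CPM in replicate 1 (adjusted p of Fisher's exact test, 0.85). Slc25a20, which carries acylcarnitine into mitochondria, had 749.6 CPM in replicate 2 and 226 CPM in replicate 1 (adjusted p = 2.16e-67), and Letmd1, needed for brown fat mitochondria in mice, had 312 CPM in replicate 2 and 477 CPM in replicate 1 (adjusted p = 9.06e-09). Liver also makes Slc27a2, Kng2, Ppara and Fgf21 of this list, all higher in replicate 2. Fgf21 had 30 reads in replicate 2 and 0 in replicate 1, and its level in replicate 2 was 7.12 times what 3 reads would give in replicate 1. All 8 liver markers, led by Alb, Ahsg and Apoa1, were higher in replicate 2 and none was at 0; they made up 28621 CPM in replicate 2, against 9612 CPM in replicate 1. What liver RNA adds to these values was not tested.

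The counts of calls below stand beside 13% higher and 22.2% lower over all genes tested. Against the ratio expected for length these shares were 13.1% and 9.91%. Of 14 tested genes of droplets and lipolysis, 5 were higher and 4 lower, with a median log2 ratio of 0.10 (4 higher and 2 lower against the ratio expected for length). Plin2, the coat protein of most tissues and of steroid-making cells, was lower in replicate 2 (476 CPM, against 708 CPM in replicate 1), and the lipase gene Mgll (371 CPM in replicate 2 and 302 CPM in replicate 1) and the lipase inhibitor G0s2 (364 CPM in replicate 2 and 89.4 CPM in replicate 1) were higher. Of 18 genes of fatty acid and lipid synthesis, 2 were higher and 6 lower (4 and 4 of 16 against the ratio expected for length); Gpd1, which makes glycerol phosphate, did not pass (1682 CPM in replicate 2 and 1806 CPM in replicate 1), and Acly, the source of cytosolic acetyl coenzyme A (963 CPM in replicate 2 and 1542 CPM in replicate 1), and Agpat2, which makes phosphatidic acid (947 CPM in replicate 2 and 1256 CPM in replicate 1), were lower. Of 12 further genes of white fat cells 3 were higher and 2 lower (4 and 0 against the ratio expected for length). Car3, a carbonic anhydrase of fat and muscle, was the highest of them, with 4065 CPM in replicate 2 and 4295 CPM in replicate 1 (lower, adjusted p of Fisher's exact test 0.028, but higher against the ratio expected for length), followed by Cav1 (325 CPM in replicate 2 and 499 CPM in replicate 1, lower) and Agt (435 CPM in replicate 2 and 176 CPM in replicate 1, higher). Of 7 fat cell precursor genes 0 were higher and 2 lower, Cd34 (107 CPM in replicate 2 and 149 CPM in replicate 1) and Zfp423 (13.0 CPM in replicate 2 and 28.0 CPM in replicate 1), and Ly6a did not pass (19.9 CPM in replicate 2 and 11.9 CPM in replicate 1); against the ratio expected for length none of 5 was called. Of the 7 macrophage markers Lyz2 was the only one called, higher in replicate 2 (186 CPM, against 64.7 CPM in replicate 1); C1qa had 45.3 CPM in replicate 2 and 26.9 CPM in replicate 1, and C1qb had 42.2 CPM in replicate 2 and 26.9 CPM in replicate 1. Of 7 kidney markers Aqp2 alone had reads in both libraries, 5 in each.

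**Figure D5:**
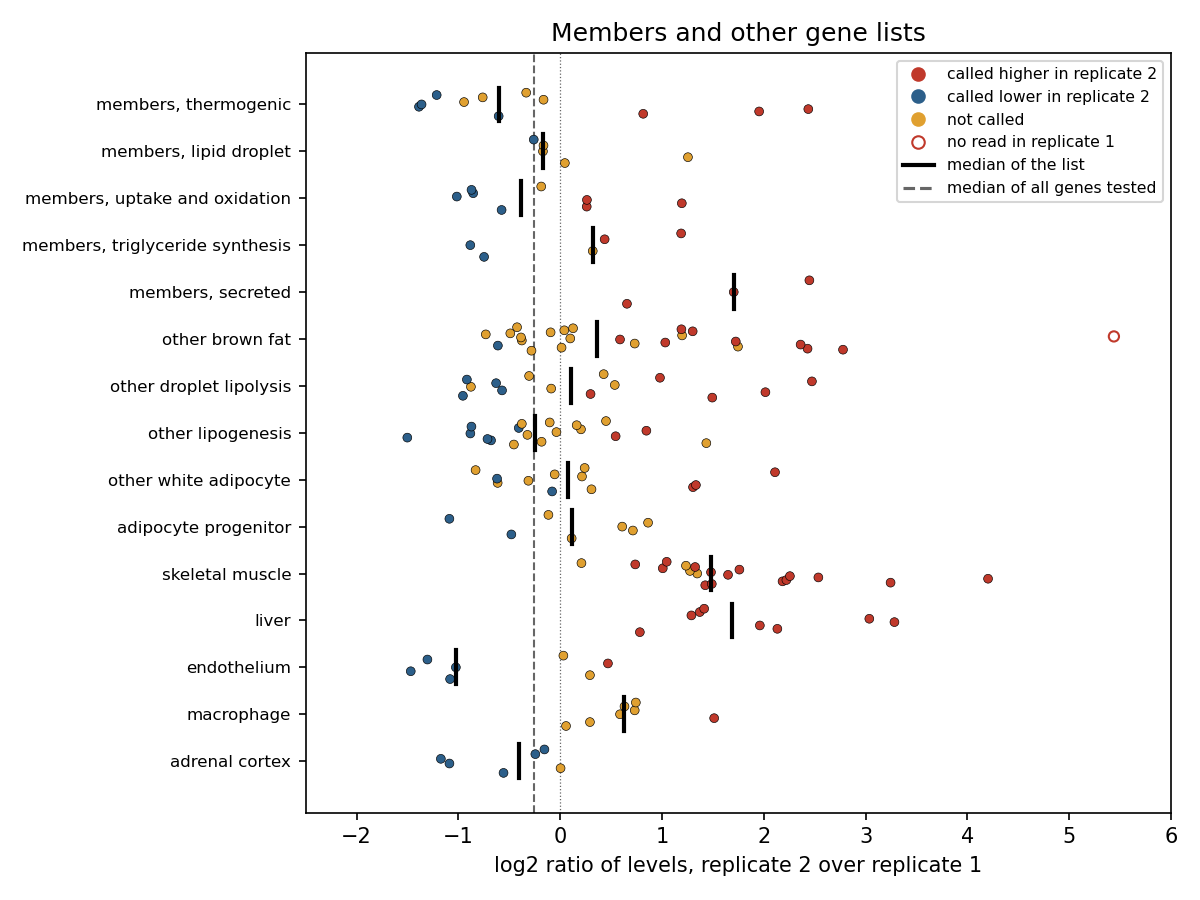
Log2 ratio of levels, replicate 2 over replicate 1, for the tested genes of the members' groups and of the other lists, with list medians (black bars) and the median of all genes tested, -0.25 (dashed line). Members lie on both sides of the line, the secreted group, skeletal muscle and liver lie to the right, and the open circle is Fgf21, which had no read in replicate 1.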

How the data were processed

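Each library's deposited table holds counts, the reads that the authors assigned to every transcript model, not normalized, and, as other values, the exon number and length of each model in bases; the deposited annotations give positions on mm10. The models are those of GENCODE M21 and of TALON, per the file headers; no aligner or TALON version is given in the sources used here. Reads were summed per gene and divided by reads on annotated genes. Replicate 2 held 1407511 reads and replicate 1 held 971827, of which spike-ins took 2.50% and 1.57%. With 1 group of 2 libraries no model across replicates can be fitted, so genes with 10 or more reads were compared by Fisher's exact test, two-sided (scipy 1.17.1), Benjamini-Hochberg adjusted over 11650 genes at a threshold of 0.05, with 0.5 reads added before log2 ratios. Of these, 4961 had an unadjusted p under 0.05. Ratios expected from length are a running median over 501 genes of like length, tested with an exact binomial test. The code was tested on simulated data. A count of 0 allows up to 3 reads. Intervals (95%, exact) and that limit cover counting error only: molecules copied by PCR can be read more than once.

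Every member was to be named, with the 3 genes of the highest mean level in each other list, genes of the muscle, liver and endothelium lists beside members' values, and models with 20% or more of a member's reads and 10 or more reads. The members, lists and tests were chosen with earlier results of these data known. Alternatives used edgeR 4.0.16 and DESeq2 1.42.0 (R 4.3.3) for scaling alone. Promoters are RefSeq's (GRCm38.p6; those on chromosome 18 were not used), exon sequences GENCODE's. Python 3.11.15, numpy 2.4.6, pandas 2.3.3 and matplotlib 3.10.9 were used.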

Additional observations from a re-analysis of the deposited data

How the results depend on the processing

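The counts of members called (22, 11 higher and 11 lower) moved by less than 1.5 times with TMM or DESeq2 scaling, against the ratio expected from transcript length, with annotated models only, without Genomic models, with no minimum of reads and with a minimum of 50. With a minimum of 2-fold 10 were called, 6 higher and 4 lower (background 20.1%, 9.67% and 10.4%). Scaling by TMM or DESeq2 adds 0.26 or 0.25 to each log2 ratio. Ratios that turned round where the gene was called in either setting were those of Fabp4 (-0.35), Pdk4 (0.27) and Pnpla2 (0.13) against length, of Pnpla2 with TMM (0.0033) and of Lpin1 on annotated models only (-1.78); the cause was not tested. The ratios of Cidec, Pdk4, Plin5 and Ppargc1b (with TMM and DESeq2) and of Plin1 (on annotated models and without Genomic models), among others, also changed sign where no call was made. Isoform use differed in 1 of 15 members, also in 1 of 13 with 50 or more annotated reads. It differed in 11 of 23 when the top transcript was set against every other model (background 20.4%). That setting also counts partial and unannotated models and takes in more genes, and the cause of the larger count was not tested. The summed level was 13960 CPM without Ucp1, and 16888 to 18408 CPM with either library alone. No paired analysis was possible because all samples belong to 1 group. Genes under about 50 reads have wide counting intervals, and 2 libraries give no measure of the spread between animals.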
